A study of Mus musculus with 11 samples.

Results

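Connexins form gap junctions and hemichannels, and pannexins form large-pore membrane channels. Here the 9 genes of the 2 families that are linked to glial coupling were read in mouse dorsal root ganglia (DRG): the connexins Gja1, Gjb1, Gjb2, Gjb6, Gjc1, Gjc3 and Gjd2 and the pannexins Panx1 and Panx2. They were taken by symbol from a table of 36670 genes, all 9 were in the table, and all 9 were among the 15087 genes with a mean of at least 0.5 fragments per kilobase of transcript, scaled to library size (FPKM) that entered the tests. The study sequenced poly(A) RNA from whole DRG of WT and Gpr37l1 KO mice, both as controls and 4 weeks after paclitaxel (PTX), a chemotherapy drug that causes painful neuropathy. The KO allele is tm1Lex, a targeted germline allele, and KO mice and littermates were kept on a C57BL/6 background. There were 3 libraries each of WT controls, WT PTX and KO controls, with 2 males and 1 female in each, and 2 libraries of KO PTX, with 1 male and 1 female. The labels give no age, the study's methods speak of adult mice for its assays, and neither says whether ganglia or animals were pooled, so p-values measure only the spread between these libraries.

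The libraries held 52735648 to 80348732 estimated counts. Gpr37l1 was at 14.6 to 35.7 FPKM in the 6 WT libraries and at 0.21 to 1.15 FPKM in the 5 KO libraries, so the genotype labels matched in all 11. All 8 satellite glia markers, all 10 myelinating Schwann cell markers and all 12 sensory neuron markers had a mean of at least 0.5 FPKM. Markers of neighbouring tissue were present in unequal amounts. The 7 oligodendrocyte markers summed to 0.34 to 2.96 FPKM in WT controls, 0.52 to 2.27 in WT PTX, 0.43 to 0.70 in KO controls, and 2.58 and 11.4 in KO PTX, where the female library stood highest. Only 1 of these 7 had a mean of at least 0.5 FPKM, so relations with their sum rest largely on values near the floor. The 6 leptomeningeal markers (Slc6a13, Slc22a6, Slc47a1, Aldh1a2, Ranbp3l and Itih2) summed to 8.72 to 17.6 FPKM in WT controls, 10.8 to 17.2 in WT PTX, 6.76 to 22.6 in KO controls and 7.74 to 10.3 in KO PTX. In WT control replicate 1 the gene CT010467 took 2.97% of the counts, more than the highest gene of any other library.

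A connexin channel is built from 6 subunits in one membrane and docks with a partner in the next cell, which lets ions, second messengers and small metabolites pass between the cells. In sensory ganglia, satellite glia wrap each neuronal cell body and are joined to each other by gap junctions, and this coupling is known to rise after nerve injury in animal pain models. Pannexins share the membrane topology of connexins but work mainly as channels to the outside of the cell, where Panx1 releases ATP. FPKM divides by transcript length, so levels set side by side between genes depend on the length used for each gene, which was not checked. In whole tissue, fewer cells of a type and less RNA per cell cannot be told apart.

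The pannexins and Gjc3 led the 9 genes. Mean FPKM in the 3 WT control libraries was 16.5 ± 3.06 (SD) for Panx2, 12.9 ± 1.49 for Gjc3, 11.9 ± 1.82 for Panx1, 5.27 ± 1.64 for Gjb1, 2.81 ± 0.21 for Gja1, 1.91 ± 0.92 for Gjb6, 1.78 ± 0.87 for Gjb2, 0.80 ± 0.14 for Gjd2 and 0.78 ± 0.078 for Gjc1. The highest stood 21.1-fold above the lowest. Panx2, Gjc3 and Panx1 made up 71.8% to 79.1% of the summed FPKM of the 9 genes in every library. Gja1, which encodes Cx43, thus held a minor part of the summed FPKM. The order was taken from the WT controls and tested in the other 8 libraries, where the log2 ratio of neighbours within each library had its sign flipped in all possible ways (an exact permutation test, two-sided, adjusted over the 8 pairs). The smallest p this test allows is 0.00781. Of the 8 neighbouring pairs, 7 differed in the order of the WT controls. Within the WT controls themselves, Panx1 over Gjb1 and Gjb1 over Gja1 held in all 3 libraries and every other pair in 2 of 3. Panx2 over Gjc3, Panx1 over Gjb1, Gjb1 over Gja1, Gja1 over Gjb6 and Gjb2 over Gjd2 each held in 8 of 8 libraries with an adjusted exact permutation p = 0.0125. In counts Gja1 stood above Gjb1 (1537 to 2766 against 421 to 801 over the 11 libraries). The order of Gjb1 over Gja1 therefore rests on the gene lengths behind FPKM. Panx1 also stood above Gjc3 in counts in every library (3727 to 6455 against 2735 to 4913). Gjc1 stood above Gjd2 in counts in all but KO control replicate 3 (212 to 353 against 105 to 274). The orders of Gjc3 over Panx1 and of Gjd2 over Gjc1 given next rest on those lengths too. Among the tested libraries, Gjb2 fell below Gjd2 in counts in WT PTX replicate 3 and both KO PTX libraries. Gjc3 was above Panx1 in 7 of 8 libraries, by 0.18 on the log2 scale (SD 0.13, adjusted exact permutation p = 0.0208). Gjd2 was above Gjc1 in 7 of 8, by 0.40 (SD 0.36, adjusted exact permutation p = 0.0268), and this call was lost when any 1 of WT PTX replicates 1, 2 or 3, KO control replicate 3 or KO PTX replicates 2 or 3 was left out. Gjb6 and Gjb2 did not differ beyond their spread, with a mean log2 ratio of 0.06 (SD 0.42, adjusted exact permutation p = 0.672).

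**Figure D1:**
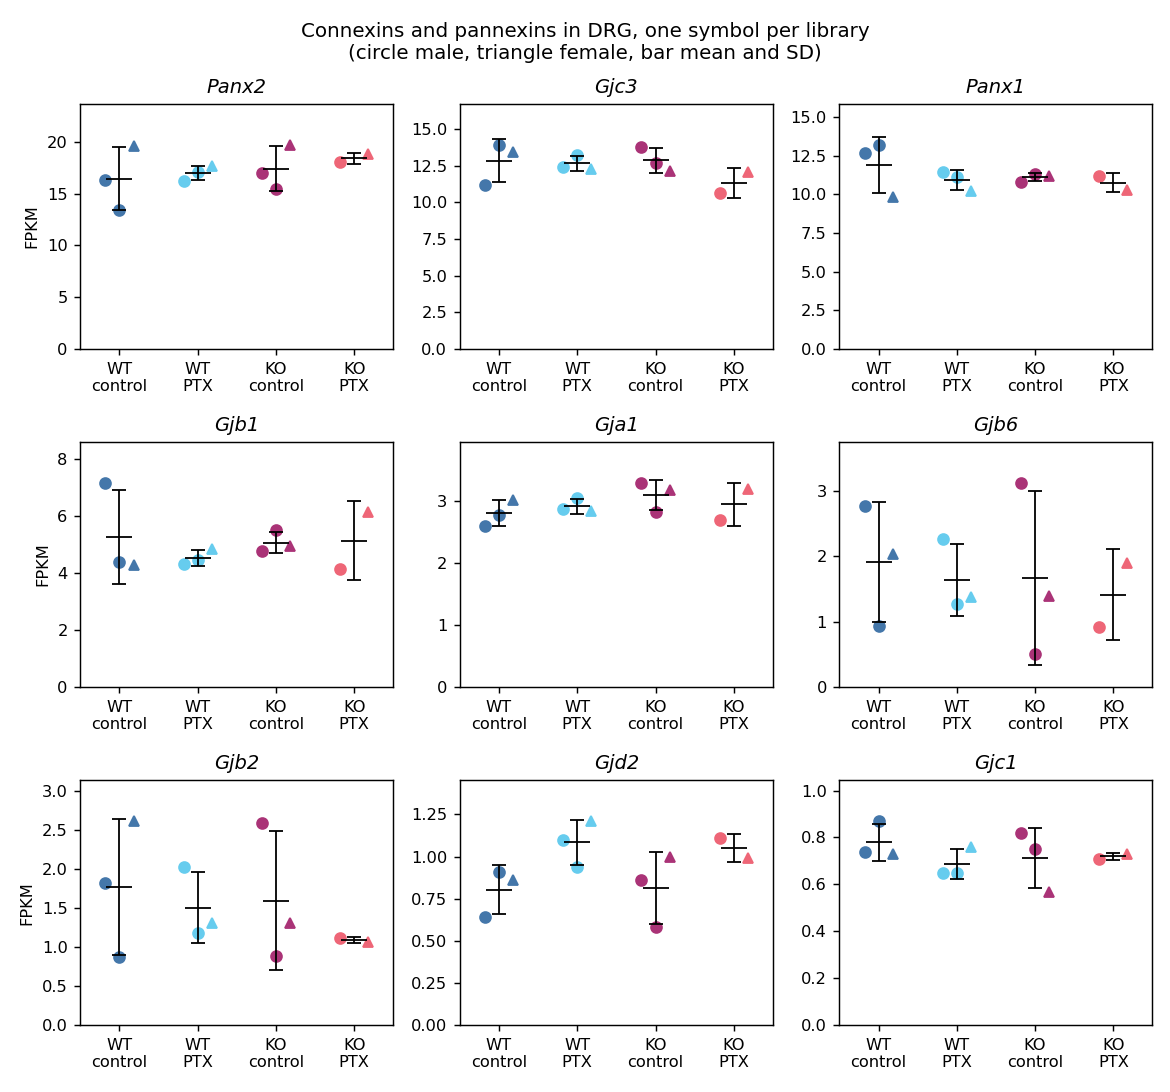
FPKM (linear axes from 0) of each of the 9 genes in the 11 DRG libraries by group, with circles for males, triangles for females and bars for mean ± SD. The groups of every gene lie at similar heights, Gjb2 and Gjb6 scatter widely within groups, and Gjd2 is higher in the 3 WT PTX libraries than in the 3 WT controls.

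The design asks whether PTX or the loss of Gpr37l1 changed these channels, and whether the PTX effect differed by genotype. None of the 9 genes passed an adjusted p of 0.05 in any comparison with edgeR's quasi-likelihood test over all genes, with sex as a covariate and Benjamini-Hochberg adjustment. For PTX in WT it was 0 of 9 genes, against 0.00663% of all genes tested, with 0 of the 9 at an unadjusted p under 0.05, where 13.5% of all genes fell. For PTX in KO it was 0 of 9 against 0.00663%, with 0 at an unadjusted p under 0.05 against 4.32%. For KO against WT it was 0 of 9 against 0.00663% in controls, with 0 at an unadjusted p under 0.05 against 7.54%. After PTX it was 0 of 9 against 0.0133%, with 0 at an unadjusted p under 0.05 against 3.55%. The difference of the PTX effect between genotypes gave 0 of 9 against 0.00663%, with 0 at an unadjusted p under 0.05 against 6.30%. PTX over both genotypes gave 0 of 9 against 0.0133%, with 1 at an unadjusted p under 0.05 (Gjd2) against 9.36%. KO over both treatments gave 0 of 9 against 0.0133%, with 0 at an unadjusted p under 0.05 against 3.75%. DESeq2 and limma also called 0 of the 9 genes in each of these comparisons, while DESeq2 called more of all genes (309 for PTX in WT).

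The median log2 fold change of the 9 genes was -0.12 for PTX in WT, where that of all genes tested was -0.01. In KO mice PTX gave a median of -0.02, against -0.01 over all genes. The median of KO against WT was -0.06 in controls, against 0.003, and -0.004 after PTX, against -0.01. How large a change the data leave possible differed by gene. Over the 4 comparisons of 2 groups, the 95% intervals of Panx1, Panx2, Gja1 and Gjc3 reached no further than 1.24-fold, 1.25-fold, 1.27-fold and 1.35-fold in either direction. Those of Gjc1, Gjb1 and Gjd2 reached 1.51-fold, 1.68-fold and 1.91-fold. Those of Gjb2 and Gjb6 reached 3.26-fold and 3.47-fold, so a change of 3-fold in Gjb2 or Gjb6 would lie inside these intervals.

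**Figure D2:**
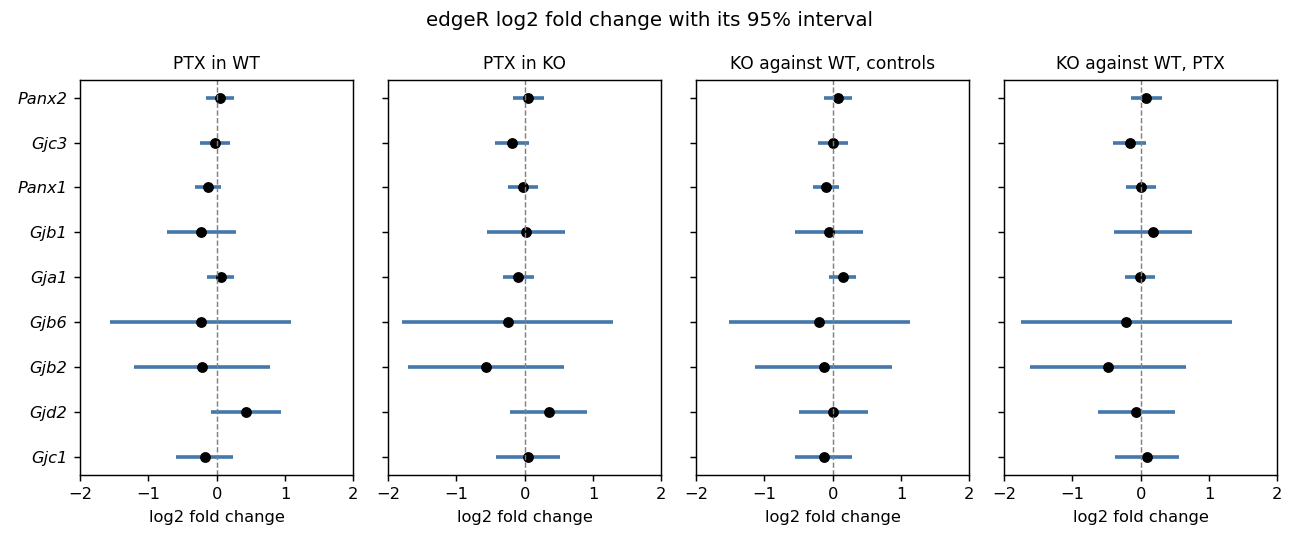
Log2 fold change (points) and 95% interval (bars) of the 9 genes from edgeR in the 4 comparisons of 2 groups, ordered by WT control level. Every interval spans 0, those of Panx2, Gjc3, Panx1 and Gja1 are the narrowest, and those of Gjb6 and Gjb2 are the widest.

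Gja1, the connexin most often studied in satellite glia, varied little between libraries. Gja1 (ENSMUSG00000050953; mm10, chromosome 10, 56377330 to 56402513, plus strand) has its whole coding sequence in 1 exon in the GENCODE M21 annotation, as do Gjb1, Gjb2, Gjb6 and Gjc1. Its FPKM was 2.61, 2.78 and 3.03 in WT controls, 2.87, 3.06 and 2.84 in WT PTX, 3.30, 2.83 and 3.19 in KO controls, and 2.70 and 3.20 in KO PTX. All groups overlapped, and the highest library was 1.26-fold above the lowest, on 1537 to 2766 counts. KO controls against WT controls gave a log2 fold change of 0.14 (SE 0.088, edgeR adjusted p = 0.686). PTX gave 0.06 in WT (SE 0.088, edgeR adjusted p = 0.788) and -0.09 in KO (SE 0.10, edgeR adjusted p = 0.999). The within-group SD of Gja1 on the log2(FPKM + 1) scale was 0.083, and 19.6% of the genes tested had a lower one.

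Gjc3 and Gjb1 encode the connexins of myelinating Schwann cells, Cx29 and Cx32. Cx32 joins the layers of uncompacted myelin, and mutations of the human gene cause X-linked Charcot-Marie-Tooth disease. Gjc3 (ENSMUSG00000056966; chromosome 5, 137953461 to 137963098, minus strand) was at 11.2, 13.9 and 13.5 FPKM in WT controls, 12.4, 13.2 and 12.3 in WT PTX, 13.8, 12.7 and 12.1 in KO controls, and 10.6 and 12.1 in KO PTX. Both KO PTX libraries lay below every KO control and every WT PTX library, though the nearest of each were 12.07 and 12.12 FPKM. PTX in KO gave a log2 fold change of -0.19 (SE 0.11, 95% interval -0.43 to 0.06, edgeR adjusted p = 0.999), and KO against WT after PTX gave -0.16 (SE 0.11, edgeR adjusted p = 0.993). The difference of the PTX effect between genotypes was -0.16 (SE 0.15, edgeR adjusted p = 0.772). The 2 KO PTX libraries also had oligodendrocyte sums above those of every KO control and WT PTX library (2.58 and 11.4 FPKM) and the highest astrocyte sums, 15.3 and 27.7 FPKM against 8.65 to 11.1 in KO controls. KO PTX replicate 2, the library lowest in Gjc3, also had the lowest myelinating Schwann cell sum, 1317 FPKM against 1628 to 2283 in the other 10. Over the 11 libraries, however, Gjc3 did not follow that sum. It gave r = 0.36 (permutation p = 0.276, adjusted p = 0.867) and rho = -0.009 (permutation p = 0.989, adjusted p = 0.999), and r = -0.60 without the 2 farthest libraries. Gjc3 ran against the oligodendrocyte sum over the 11 libraries, with r = -0.56 (permutation p = 0.0689, adjusted p = 0.392) and rho = -0.70 (permutation p = 0.0200, adjusted p = 0.268), and r = -0.72 without the 2 libraries farthest from its median. For the deviations from the group means r was only -0.24, and only 1 of the 7 markers in the oligodendrocyte sum averaged at least 0.5 FPKM. The part of such cells in the Gjc3 values was not tested.

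Gjb1 (ENSMUSG00000047797; chromosome X, 101376378 to 101385629, plus strand) was at 7.17, 4.38 and 4.27 FPKM in WT controls, 4.31, 4.46 and 4.83 in WT PTX, 4.78, 5.50 and 4.94 in KO controls, and 4.16 and 6.13 in KO PTX. WT control replicate 1 and KO PTX replicate 3 stood above the other 9 libraries. The same libraries had the highest oligodendrocyte sums, 2.96 and 11.4 FPKM, and oligodendrocytes are known to express Gjb1. Only 1 of the 7 markers in that sum averaged at least 0.5 FPKM. PTX in WT gave a log2 fold change of -0.22 (SE 0.23, edgeR adjusted p = 0.665), which became 0.09 without WT control replicate 1. PTX in KO gave 0.01 (SE 0.26, edgeR adjusted p = 0.999), which became -0.33 without KO PTX replicate 3. Over the 11 libraries Gjb1 and the oligodendrocyte sum gave r = 0.58 (permutation p = 0.0650, adjusted p = 0.390) and rho = 0.47 (permutation p = 0.147, adjusted p = 0.613). Without the 2 libraries farthest from the median oligodendrocyte sum r was -0.13, so the relation rested on those libraries. With all 11 libraries r was 0.92 for the deviations from the group means, and without KO PTX it was 0.72. Gjb1 also ran with the satellite glia sum, with r = 0.75 (permutation p = 0.00643, adjusted p = 0.101) and rho = 0.65 (permutation p = 0.0331, adjusted p = 0.284), but r was 0.45 without the 2 farthest libraries. That sum was 1062 to 1499 FPKM, of which Apoe alone held most (711 to 1080 FPKM). With the myelinating Schwann cell sum Gjb1 gave r = 0.59 (permutation p = 0.0613, adjusted p = 0.390) and rho = 0.59 (permutation p = 0.0609, adjusted p = 0.411), and r was 0.75 without the 2 farthest libraries. With the astrocyte sum it gave r = 0.59 (permutation p = 0.0615, adjusted p = 0.390) and rho = 0.36 (permutation p = 0.274, adjusted p = 0.855), and r was 0.81 without the 2 farthest libraries. None of these relations passed. The part of other cells in the Gjb1 values was not tested.

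Gjb2 and Gjb6 encode Cx26 and Cx30, which are known as partners in the cochlea, in astrocytes and in the leptomeninges, the thin sheath around the brain, spinal cord and roots. They lie side by side on the minus strand of chromosome 14, Gjb2 (ENSMUSG00000046352) at 57098600 to 57104702 and Gjb6 (ENSMUSG00000040055) at 57123303 to 57133611, with 18600 bases between them that hold 1 annotated gene, Gm4491, at no more than 0.07 FPKM. Because the genes are neighbours and moved together below, the 250 bases before each start (RefSeq, GRCm38.p6) are shown 5′ to 3′ with motif matches in capitals. The Gjb2 stretch is chr14:57104703-57104952 and the Gjb6 stretch is chr14:57133612-57133861, both read on the minus strand.
Gjb2: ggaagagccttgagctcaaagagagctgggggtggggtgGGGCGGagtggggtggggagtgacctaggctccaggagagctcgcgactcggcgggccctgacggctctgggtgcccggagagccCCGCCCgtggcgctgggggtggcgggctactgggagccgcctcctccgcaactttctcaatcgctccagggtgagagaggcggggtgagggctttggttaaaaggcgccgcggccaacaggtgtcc
Gjb6: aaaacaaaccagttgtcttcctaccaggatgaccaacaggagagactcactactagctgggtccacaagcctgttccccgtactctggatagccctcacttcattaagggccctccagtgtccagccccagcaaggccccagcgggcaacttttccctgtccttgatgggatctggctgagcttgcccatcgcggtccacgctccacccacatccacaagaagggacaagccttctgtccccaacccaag
The 4 motifs named next were searched on both strands, and none of their matches overlapped. The GC box GGGCGG is in 32.7% of the 32851 promoter stretches of this length in the table, CCAAT in 33.9%, TATAAA in 12.4% and the AP-1 motif TGANTCA in 6.75%. The Gjb2 stretch holds 2 GC boxes, which begin 211 and 126 bases before the start, and the Gjb6 stretch holds none of the 4 motifs. The Gjb2 stretch has 69.2% G and C with 18 CpG dinucleotides, and the Gjb6 stretch has 56.8% with 5, where the median of all stretches is 52.4%. These letters are a description of the 2 starts and not of binding.

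The 2 genes varied more within groups than any other of the 9. Gjb2 was at 1.83, 0.88 and 2.62 FPKM in WT controls, 2.03, 1.19 and 1.31 in WT PTX, 2.60, 0.89 and 1.31 in KO controls, and 1.12 and 1.07 in KO PTX. Gjb6 was at 2.77, 0.94 and 2.03 in WT controls, 2.26, 1.27 and 1.37 in WT PTX, 3.12, 0.51 and 1.39 in KO controls, and 0.92 and 1.90 in KO PTX. The 4 libraries high in one gene were the 4 highest in the other: WT control replicates 1 and 3, WT PTX replicate 1 and KO control replicate 1. Within KO controls alone Gjb6 spanned 6.12-fold. The within-group SD on the log2(FPKM + 1) scale was 0.52 for Gjb6 and 0.38 for Gjb2, and 97.9% and 95.9% of the genes tested had a lower one.

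Over the 11 libraries Gjb2 and Gjb6 gave r = 0.83 (permutation p = 0.00151, adjusted over 36 pairs of the 9 genes p = 0.0544) and rho = 0.81 (permutation p = 0.00423, adjusted p = 0.152). Without the 2 libraries farthest from the median r was 0.73, within the 7 males r was 0.95, and the 4 females were too few for a correlation. Among them KO PTX replicate 3 was lowest in Gjb2 (1.07 FPKM) and second only to WT control replicate 3 in Gjb6 (1.90 FPKM). None of the 36 pairs passed the adjusted threshold. Both genes also followed the summed leptomeningeal markers. Gjb2 gave r = 0.94 (permutation p = 2e-05, adjusted over 108 relations of 9 genes with 12 marker lists p = 0.00216) and rho = 0.93 (permutation p = 0.00014, adjusted p = 0.0151). Gjb6 gave r = 0.93 (permutation p = 5e-05, adjusted p = 0.0027) and rho = 0.90 (permutation p = 0.00031, adjusted p = 0.0167). Without the 2 farthest libraries r was 0.93 and 0.92, for the deviations from the group means it was 0.93 and 0.97, and within the 7 males it was 0.97 and 0.99. Of the 4 females, too few for a correlation, KO PTX replicate 3 had the lowest leptomeningeal sum (10.3 FPKM) with the lowest Gjb2 but not the lowest Gjb6. Each of the 6 markers on its own gave an r of 0.80 to 0.96 with Gjb2 and with Gjb6.

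**Figure D3:**
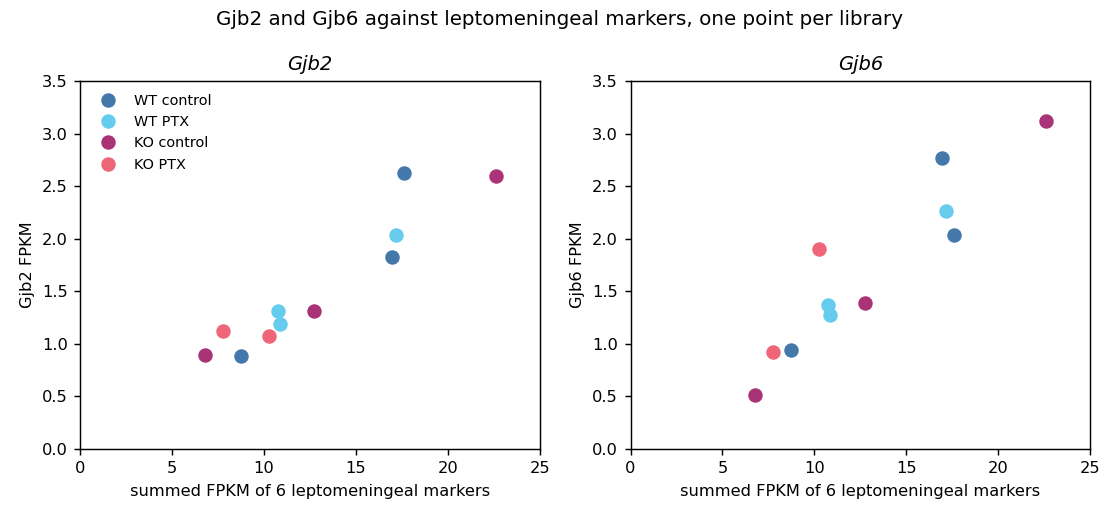
FPKM of Gjb2 (left) and Gjb6 (right) against the summed FPKM of 6 leptomeningeal markers, one point for each of the 11 libraries, coloured by group on linear axes. Both genes rise with the marker sum across groups, with r = 0.94 and 0.93 on the log2 scale.

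No group comparison of Gjb2 or Gjb6 passed the test. In KO PTX both Gjb2 values lay below all 3 of WT PTX, with a log2 fold change of -0.48 (SE 0.51, 95% interval -1.62 to 0.66, edgeR adjusted p = 0.993), and the leptomeningeal sums of KO PTX (7.74 and 10.3 FPKM) also lay below the 3 of WT PTX. PTX in KO gave -0.56 for Gjb2 (SE 0.51, edgeR adjusted p = 0.999) and -0.25 for Gjb6 (SE 0.70, edgeR adjusted p = 0.999). PTX in WT gave -0.22 for Gjb2 (SE 0.45, edgeR adjusted p = 0.848) and -0.23 for Gjb6 (SE 0.60, edgeR adjusted p = 0.879). With the log2 of the leptomeningeal sum as a covariate, chosen after seeing the data, the SE for PTX in WT fell from 0.45 to 0.22 for Gjb2 and from 0.60 to 0.21 for Gjb6. In that fit the PTX effect on Gjb2 was -0.03 in WT and 0.08 in KO (edgeR adjusted p = 0.961 and 0.999). The PTX effect on Gjb6 was 0.02 in WT (95% interval -0.44 to 0.48) and 0.73 in KO (95% interval 0.18 to 1.29, unadjusted p = 0.0150, edgeR adjusted p = 0.999). The Gjb6 value for PTX in KO thus turned from -0.25 to 0.73 with this covariate, and to 0.60 without KO control replicate 1. The difference of its PTX effect between genotypes was 0.71 in the covariate fit (unadjusted p = 0.0480, edgeR adjusted p = 0.760). KO PTX replicate 3, with 1.90 FPKM of Gjb6, also had the highest astrocyte sum, and the part of astrocytes in it was not tested.

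The pannexins were, with Gjc3, the most abundant of the 9 genes, and no group difference of either passed the test. Panx1 (ENSMUSG00000031934; chromosome 9, 15002128 to 15045478, minus strand) was at 12.7, 13.2 and 9.84 FPKM in WT controls, 11.5, 11.1 and 10.2 in WT PTX, 10.8, 11.3 and 11.2 in KO controls, and 11.2 and 10.3 in KO PTX. All groups overlapped. PTX in WT gave a log2 fold change of -0.12 (SE 0.085, 95% interval -0.31 to 0.07, edgeR adjusted p = 0.529). This was the member closest to the threshold in any alternative, with -0.23 and an edgeR adjusted p = 0.153 when WT control replicate 3, the lowest library, was left out. Panx2 (ENSMUSG00000058441; chromosome 15, 89059734 to 89070907, plus strand), which is known mainly from neurons, was at 16.4, 13.5 and 19.6 FPKM in WT controls, 16.3, 17.1 and 17.6 in WT PTX, 17.0, 15.5 and 19.8 in KO controls, and 18.1 and 18.8 in KO PTX. Both KO PTX libraries were above the 3 WT PTX libraries, but by a log2 fold change of only 0.09 (SE 0.10, edgeR adjusted p = 0.993).

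In KO against WT after PTX, with 2 libraries against 3, the groups did not overlap for 3 of the 9 genes (Gjb2, Gjc3 and Panx2), against 20.2% of all genes tested. The other comparisons of 2 groups gave Gjd2 for PTX in WT (1 of 9, against 14.2% of all genes), Gjc3 for PTX in KO (1 of 9, against 21.6%) and 0 of 9 for KO against WT in controls (against 9.28%).

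Panx1 and Panx2 gave r = -0.77 (permutation p = 0.00604, adjusted p = 0.109) and rho = -0.69 (permutation p = 0.0228, adjusted p = 0.411) over the 11 libraries, and neither passed. Within the 7 males r was -0.74, while among the 4 females, too few for a correlation, the library highest in Panx1 (11.2 FPKM) was also the highest in Panx2 (19.8 FPKM). Panx1 followed the sensory neuron sum, with r = 0.90 (permutation p = 0.00055, adjusted p = 0.0198), rho = 0.72 (permutation p = 0.0162, adjusted p = 0.249) and r = 0.63 without the 2 farthest libraries, so that relation passed on the linear measure only. Panx2 gave r = -0.76 with the same sum (permutation p = 0.00655, adjusted p = 0.101) and rho = -0.75 (permutation p = 0.00954, adjusted p = 0.172). Within the 7 males r was 0.93 for Panx1 and -0.77 for Panx2. The 4 females were too few for a correlation and did not follow the males for Panx2, since the 2 females with the higher sums (4631 and 4629 FPKM) had the higher Panx2 (19.6 and 19.8 FPKM). For Panx1, the female with the highest sum, WT control replicate 3, was the lowest of all 11 libraries (9.84 FPKM). In the other females Panx1 rose with the sum. The sensory neuron sum was 4276 to 4631 FPKM in the 4 females and 4662 to 5689 in the 7 males.

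The pannexins also had different values by sex, short of the threshold. In the same fit, a comparison added after seeing the data gave a log2 fold change of female against male of -0.17 for Panx1 (SE 0.067, unadjusted p = 0.0259, edgeR adjusted p = 0.547) and 0.20 for Panx2 (SE 0.071, unadjusted p = 0.0169, edgeR adjusted p = 0.536). Neither passed: 0 of 9 genes did, against 0.0398% of all genes, and 2 of 9 were at an unadjusted p under 0.05, against 8.44% of all genes. DESeq2 and limma also called 0 of the 9 genes. Panx1 was at 9.84, 10.2, 11.2 and 10.3 FPKM in the females and at 10.8 to 13.2 in the males. Panx2 was at 19.6, 17.6, 19.8 and 18.8 FPKM in the females and at 13.5 to 18.1 in the males. The ranges of the sexes overlapped for both, as for all 9 genes (0 of 9 did not overlap, against 1.5% of all genes tested), and the female library carries the replicate number 3 in every group, so sex and that number cannot be told apart.

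**Figure D4:**
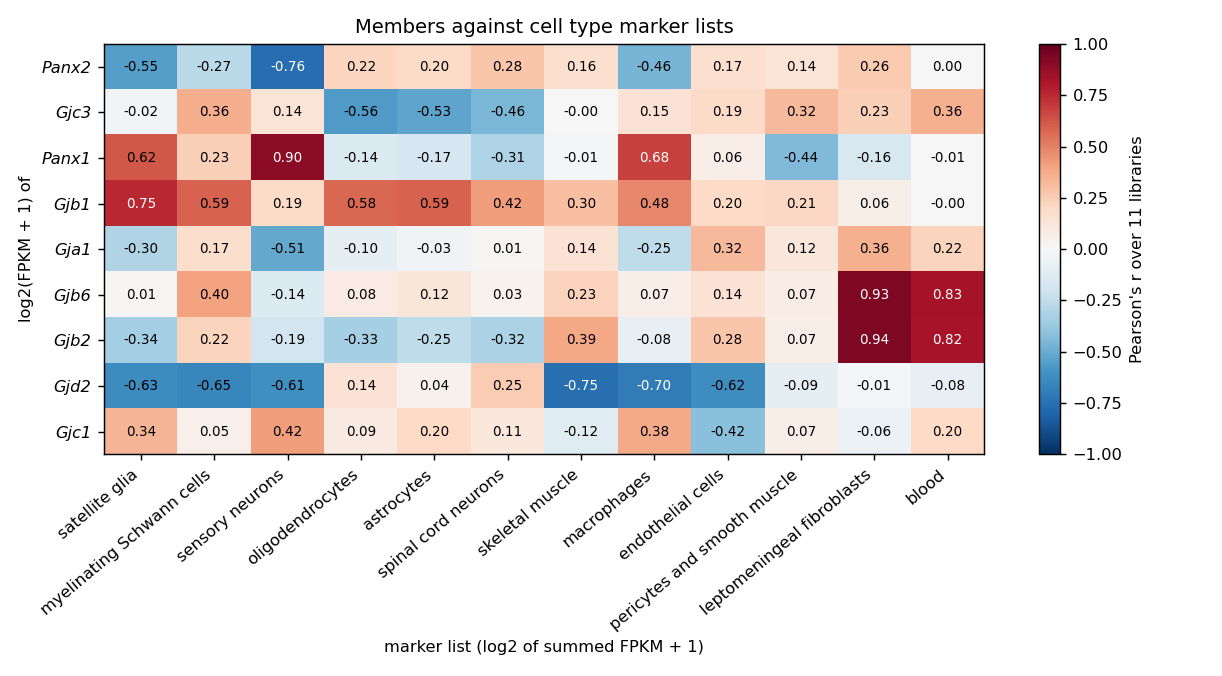
Pearson's r over 11 libraries between log2(FPKM + 1) of each of the 9 genes (rows) and log2 of the summed FPKM + 1 of 12 cell type marker lists (columns), from -1 (blue) to 1 (red). The 3 relations past the adjusted threshold are Gjb2 and Gjb6 with leptomeningeal fibroblasts (0.94 and 0.93) and Panx1 with sensory neurons (0.90).

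In the map of r by marker list, both Gjb2 and Gjb6 also ran with the blood markers, with r = 0.82 and 0.83 (permutation p = 0.00266 and 0.00212, adjusted p = 0.0575 and 0.0572) and rho = 0.69 and 0.82 (permutation p = 0.0224 and 0.00331, adjusted p = 0.268 and 0.0756). Of the 108 relations, 3 passed by r and 2 by rho, and those 2 were Gjb2 and Gjb6 with the leptomeningeal list. No relation of Gja1 or Gjc1 with a marker list passed.

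Gjd2 and Gjc1 had the lowest mean FPKM of the 9 in WT controls. Gjd2 encodes Cx36, the main connexin of electrical synapses between neurons. Gjd2 (ENSMUSG00000068615; chromosome 2, 114009601 to 114013619, minus strand) was at 0.64, 0.91 and 0.86 FPKM in WT controls, 1.10, 0.94 and 1.21 in WT PTX, 0.86, 0.58 and 1.00 in KO controls, and 1.11 and 0.99 in KO PTX. It rested on 105 to 274 counts. The 3 WT PTX libraries were above the 3 WT controls, and the KO groups overlapped. PTX in WT gave a log2 fold change of 0.43 (SE 0.23, 95% interval -0.08 to 0.93, edgeR adjusted p = 0.425), with an exact two-sided permutation p = 0.1 on FPKM, the smallest that 3 against 3 libraries allow. PTX in KO gave 0.35 (SE 0.25, edgeR adjusted p = 0.999), and over both genotypes PTX gave 0.39 (SE 0.17, 95% interval 0.01 to 0.77, unadjusted p = 0.0436, edgeR adjusted p = 0.518). The difference between genotypes was -0.08 (SE 0.34, edgeR adjusted p = 0.965). In this fit of all libraries with sex it was the only one of the 9 genes with an unadjusted p under 0.05 for PTX, and it failed the correction. None of the 9 had one over both genotypes with the replicate block. The same held without WT PTX replicate 1, WT PTX replicate 3 or KO control replicate 2.

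The macrophage sum moved the other way in WT, with 29.9 to 39.7 FPKM in controls and 21.9 to 26.7 after PTX. Across the 11 libraries Gjd2 gave r = -0.70 with it (permutation p = 0.0166, adjusted p = 0.199) and rho = -0.82 (permutation p = 0.0035, adjusted p = 0.0756). With the skeletal muscle sum, which ranged from 3.31 to 594 FPKM, Gjd2 gave r = -0.75 (permutation p = 0.00747, adjusted p = 0.101) and rho = -0.82 (permutation p = 0.00328, adjusted p = 0.0756). Gjd2 also ran against the satellite glia, myelinating Schwann cell, endothelial and sensory neuron sums, with r = -0.63, -0.65, -0.62 and -0.61. Their permutation p was 0.0396, 0.0328, 0.0399 and 0.0433, each with an adjusted p = 0.312. The remaining lists gave r from -0.092 to 0.25. None of the relations of Gjd2 passed, and the negative ones were not particular to 1 cell type. The part of any of these cells in the Gjd2 values was not tested. The antisense gene A530058N18Rik shares 57 of the 2879 exonic bases of Gjd2 and was at 0.03 to 0.19 FPKM, and the sources used here do not say whether reads were counted by strand.

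Gjc1 encodes Cx45, a connexin known from vascular smooth muscle and the heart. Gjc1 (ENSMUSG00000034520; chromosome 11, 102799579 to 102819179, minus strand) was at 0.74, 0.87 and 0.73 FPKM in WT controls, 0.65, 0.65 and 0.76 in WT PTX, 0.82, 0.75 and 0.57 in KO controls, and 0.71 and 0.73 in KO PTX. All groups overlapped. PTX in WT gave a log2 fold change of -0.18 (SE 0.19, edgeR adjusted p = 0.680), and KO against WT in controls gave -0.13 (SE 0.19, edgeR adjusted p = 0.844).

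The genes whose log2(FPKM + 1) ran closest to each of the 9 over the 11 libraries differed from gene to gene, and since they were the highest of all genes tested they are a description with no test. For Gjb2 they were Slc9a2 (r = 0.96), Itih2 (0.96) and Slc6a20a (0.94), and for Gjb6 they were Aldh1a2 (0.95), Fmod (0.93) and Slc22a8 (0.92). Itih2 and Aldh1a2 are also in the leptomeningeal list. For Gja1 they were Sdc2 (0.94), Zcchc8 (0.93) and Col11a1 (0.91). For Gjc3 they were Pcdhga7 (0.89), Ccr2 (0.89) and Mtmr10 (0.87), and for Gjb1 they were Ddn (0.92), Ubxn1 (0.92) and Mrpl23 (0.91). For Panx1 they were Chmp7 (0.97), Wsb2 (0.95) and Prss12 (0.94), and for Panx2 Hexim1 (0.94), Hcn2 (0.94) and Hoxaas2 (0.92). For Gjd2 they were Mettl25 (0.92), Vps13d (0.91) and Jmjd4 (0.90), and for Gjc1 they included Itpr1 (0.90) and Star (0.84). Without the 2 KO PTX libraries every one of these values was at least 0.816. The points share their library depth and tissue make-up.

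The rest of the family was at low levels. Of the 14 other connexins and pannexins listed, 13 were in the table, and Gja4, which encodes Cx37 of the arterial endothelium, was the only one with a mean of at least 0.5 FPKM. The other 12 were at 0 to 0.41 FPKM in every library. Gja4 was at 1.75, 1.65 and 1.83 FPKM in WT controls, 1.01, 1.51 and 1.14 in WT PTX, 2.09, 1.66 and 1.67 in KO controls, and 0.99 and 1.45 in KO PTX. Its PTX libraries were below the controls both within WT and within KO. In those comparisons 14.2% and 21.6% of all genes tested did not overlap, in either direction. PTX over both genotypes gave a log2 fold change of -0.55 (SE 0.18, unadjusted p = 0.0109, edgeR adjusted p = 0.443), with -0.52 in WT (edgeR adjusted p = 0.370) and -0.57 in KO (edgeR adjusted p = 0.999). It did not pass in any alternative, where the adjusted p over both genotypes ran from 0.214 to 0.817. The endothelial marker sum was 24.3 to 28.0 FPKM in WT controls, 23.0 to 28.9 in WT PTX, 27.8 to 29.4 in KO controls, and 24.3 and 24.6 in KO PTX.

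Of 11 genes whose products bind, place or modify gap junctions, all 11 were tested and 0 rose or fell past the threshold in any comparison by edgeR. At an unadjusted p under 0.05 there were 3 of 11 for PTX in WT mice (13.5% of all genes tested), 2 in KO mice (4.32%), 3 for KO against WT in controls (7.54%) and 1 after PTX (3.55%). The difference of PTX effects gave 3 (6.30%), PTX over both genotypes 1 (9.36%), KO over both treatments 1 (3.75%) and female against male 2 (8.44%). DESeq2 called 1 of them, Prkca, a kinase that phosphorylates Cx43, for PTX in WT (log2 fold change 0.34, adjusted p = 0.0242). It called 309 of the 15087 genes tested there. By edgeR the value of Prkca was 0.34 for PTX in WT (adjusted p = 0.238) and 0.11 for PTX in KO (adjusted p = 0.999). KO against WT in controls, without PTX, gave a similar 0.29 (edgeR unadjusted p = 0.00815, adjusted p = 0.657). The most abundant was Ctnnb1, the cadherin partner beta-catenin, at 80.6 to 99.2 FPKM, with a log2 fold change of 0.06 for PTX in WT (SE 0.080, edgeR adjusted p = 0.734).

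Of 10 genes for ATP sensing, ATP breakdown and pannexin cleavage, all 10 were tested and 0 passed in any comparison by edgeR, DESeq2 or limma. At an unadjusted p under 0.05 there were 3 of 10 for PTX in WT (13.5% of all genes tested), 3 for female against male (8.44%) and 0 in each of the other 6 comparisons. Their median log2 fold change was 0.09 in WT mice given PTX and 0.01 in KO mice given PTX, against -0.01 and -0.01 over all genes tested. The most abundant was Entpd3, an ectoenzyme of sensory neurons that hydrolyses ATP, at 35.1 to 50.8 FPKM, with a log2 fold change of 0.16 for PTX in WT (SE 0.080, edgeR adjusted p = 0.402).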

How the data were processed

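Poly(A) RNA of mouse DRG was sequenced with a stranded kit. The submitters' processing notes name cutadapt, FastQC, HISAT2, StringTie and the build mm10, with no versions. The authors deposited 1 table with FPKM and estimated counts (expected counts, used as whole numbers) per gene. Groups came from the sample descriptions. The titles number the KO PTX libraries otherwise. No 2 of the 55 library pairs were alike (at least 99.4% of genes differed in count).

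Tests took the genes whose FPKM averaged 0.5 or more over the libraries and ran in R 4.3.3 with edgeR 4.0.16 (TMM, quasi-likelihood, 1 fit of 11 libraries, group and sex, Benjamini-Hochberg, threshold 0.05). SEs were the log2 fold change over the root of F. Alternatives were DESeq2 1.42.0, limma 3.58.1 on log2(FPKM + 1) or log2(FPKM + 0.1), other filters, scalings and covariates, and leaving out each library. The edgeR fit was tested on simulated counts with 200 changed genes. Of genes changed 1.5-fold it recovered 38% for PTX in WT and 27% for PTX in KO. At 2-fold it recovered 76% and 73%, so changes of 1.5-fold would often be missed. Each simulated gene had the spread typical of its level and not its own. The rates thus do not carry over to genes as variable as Gjb2 and Gjb6. Level ratios used FPKM + 0.1. Relations across libraries used 100000 permutations (scipy 1.17.1) and Benjamini-Hochberg adjustment. Deviations of same-numbered libraries of different groups gave r of -0.23 to 0.23 over 15 pairs (mean 0.053), against -0.23 to 0.24 over 30 other pairs (mean -0.026). The pairs of replicate 3, the female library of each group, ran from 0.044 to 0.23. Coordinates are from the deposited table, gene structure from GENCODE M21 and start sequences from RefSeq, which held 7 of the 9 genes.

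Genes named beside the 9 are the most abundant of each list, any gene of a list past the threshold, and the 3 nearest in r, of which 1 is not reported here; Prkca was named after its values were seen. The members and lists were chosen with earlier results of these data known.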

Additional observations from a re-analysis of the deposited data

How the results depend on the processing

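None of the 9 genes passed the threshold in any alternative that was run, and the lowest adjusted p was 0.153. There were 21 settings, of which groups compared alone covered 4 comparisons, and the fits without sex or with the replicate block had no female against male. Of 72 log2 fold changes of the 9 genes, 44 had another sign in at least 1 alternative, all of them short of the threshold. In 20 of 1458 alternative values the sign changed with a shift over 1 SE.

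Counts of all genes past the threshold moved with the tool. edgeR called 1 gene each for PTX within WT and within KO, 1 and 2 for KO against WT in controls and after PTX, 1 for the difference of PTX effects, 2 for PTX and 2 for KO over both groups, and 6 for female against male. DESeq2 called 309, 29, 42, 10, 12, 125, 28 and 124 in that order. Without a filter there were 2 for PTX in WT and 14 for sex. For PTX in WT there were 0 without the sex term and 0 with limma on either scale, and over both genotypes 1 without the sex term, 0 with limma on log2(FPKM + 1) and 1 on log2(FPKM + 0.1). Groups compared alone gave 5 and 4 for PTX within WT and KO and 5 for KO against WT after PTX. With the replicate block in place of sex the counts were 1 and 1 for PTX within WT and KO and 0 for the 9 genes, and the block changed no call. The cause of these shifts was not tested.

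Leaving out 1 library gave 0 (WT control replicate 1, for example) to 30 genes (WT control replicate 3) for PTX in WT, 1 to 7 within KO, 1 to 4 and 2 to 7 for KO against WT in controls and after PTX, 1 to 6 for the difference, 1 to 18 for PTX (18 without WT control replicate 2) and 2 to 5 for KO over both groups, and 5 to 12 for sex. Gjd2 over Gjc1 ran from 0.35 to 0.50. Among log2 fold changes that turned, Gjb1 ran from -0.42 to 0.092 with PTX in WT, -0.33 to 0.37 with PTX in KO, -0.25 to 0.26 and -0.17 to 0.53 for KO against WT in controls and after PTX, -0.11 to 0.59 for the difference, -0.28 to 0.073 for PTX and -0.12 to 0.23 for KO over both groups. Its turns came without WT control replicate 1 or a KO PTX library. Panx2 ran from -0.052 to 0.13 for PTX in WT and -0.020 to 0.16 for KO against WT in controls. Gja1 ran from -0.19 to 0.031 under PTX in KO, and when KO was set against WT after PTX it ran from -0.11 to 0.12, where Gja4 ran from -0.33 to 0.32. For PTX in KO, Gjb6 ran from -0.91 to 0.60 and Gjb2 from -0.82 to 0.019. Gjb2 ran from -0.27 to 0.31 for sex.

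With the leptomeningeal covariate, chosen after seeing the data, Gjb6 turned to 0.73 for PTX in KO and 0.38 for PTX over both genotypes, and Gjb2 to 0.079 and 0.023, and to 0.067 for KO against WT after PTX. KO PTX held 2 libraries, and Gjd2 rested on as few as 105 counts in a library.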
